A study of Homo sapiens with 8 samples.

Results

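Interferon-stimulated genes are the genes that a cell switches on when interferon binds its receptors, and 46 of them were followed here by name, with the class I antigen presentation genes left out. All array probes that the platform annotation gives to these symbols or their older or newer aliases were taken, which gave 66 probes for 44 genes, with none named for HERC6 and STAT2. The cells were RKO, an established human colon carcinoma line, and their RNA was measured on 8 Illumina HumanWG-6 v3 arrays. All cells received siRNA at 100 nM for 24 h, either a non-target control (NC) or one against SRCAP, a chromatin-remodelling enzyme that places the histone variant H2A.Z into nucleosomes, followed by 1 µM 5-Aza-CdR or by PBS. 5-Aza-CdR is a cytosine analogue that is built into DNA and blocks the upkeep of its methylation. The 4 groups were NC siRNA with PBS, NC siRNA with 5-Aza-CdR, SRCAP siRNA with PBS and SRCAP siRNA with 5-Aza-CdR, each on 2 arrays, of which replicate 1 lay on slide 1 and replicate 2 on slide 2. The stated length of drug treatment is 72 h in the sample labels but shorter in the methods, which have 72 h as the time of RNA collection, and the values cannot settle this. Separate cultures are not stated for the replicates, so the p-values measure only the spread between these arrays, which may be technical.

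Type I and type III interferons signal through the kinases JAK1 and TYK2 to a complex that holds IRF9 and binds the interferon-stimulated response element (ISRE) of target promoters. Interferon gamma acts at another element, GAS. The products tag proteins with ISG15, keep virus out of the cytoplasm, bind or degrade viral RNA and sense foreign nucleic acid, and many cells hold a part of these genes at a steady level without added interferon. In colon carcinoma lines, inhibitors of DNA methylation are known to raise interferon-stimulated genes after viral-like RNA of the cell itself is sensed.

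Promoter sequences from RefSeq (GRCh38.p14) are shown for 6 members, because these genes share regulatory letters but differed in their signals. The first 4 were called higher with 5-Aza-CdR, ISG15 was expressed and not called, and IFI44L was detected on no array. Each runs from 190 bases before the transcription start to 10 bases after it, 5′ to 3′ on the strand of the gene. Capitals mark the ISRE core GAAANNGAAA or its reverse complement TTTCNNTTTC.
HERC5, chr4:88456929-88457128, plus strand: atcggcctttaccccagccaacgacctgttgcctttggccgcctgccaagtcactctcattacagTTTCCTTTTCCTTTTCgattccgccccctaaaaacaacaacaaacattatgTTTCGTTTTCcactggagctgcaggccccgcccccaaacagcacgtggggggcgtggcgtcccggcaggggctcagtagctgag
IFITM1, chr11:313850-314049, plus strand: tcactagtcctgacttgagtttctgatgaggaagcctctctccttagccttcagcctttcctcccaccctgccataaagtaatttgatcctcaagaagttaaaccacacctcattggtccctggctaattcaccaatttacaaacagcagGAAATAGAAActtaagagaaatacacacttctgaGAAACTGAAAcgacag
LGALS3BP, chr17:78979914-78980113, minus strand: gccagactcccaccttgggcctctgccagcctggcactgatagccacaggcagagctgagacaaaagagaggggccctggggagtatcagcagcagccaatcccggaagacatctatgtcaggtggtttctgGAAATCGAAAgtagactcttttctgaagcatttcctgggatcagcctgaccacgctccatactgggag
IFI6, chr1:27672183-27672382, minus strand: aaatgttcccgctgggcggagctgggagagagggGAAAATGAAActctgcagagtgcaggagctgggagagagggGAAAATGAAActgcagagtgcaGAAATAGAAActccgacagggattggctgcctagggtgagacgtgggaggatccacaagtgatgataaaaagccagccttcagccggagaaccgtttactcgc
ISG15, chr1:1013307-1013506, plus strand: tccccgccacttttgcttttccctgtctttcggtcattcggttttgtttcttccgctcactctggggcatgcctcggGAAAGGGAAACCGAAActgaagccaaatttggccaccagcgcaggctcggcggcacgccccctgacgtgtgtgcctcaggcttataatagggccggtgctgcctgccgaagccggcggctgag
IFI44L, chr1:78620258-78620457, plus strand: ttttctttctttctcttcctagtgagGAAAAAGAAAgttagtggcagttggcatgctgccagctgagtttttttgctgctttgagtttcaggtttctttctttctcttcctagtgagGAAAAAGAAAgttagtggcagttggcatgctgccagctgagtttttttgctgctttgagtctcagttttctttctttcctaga

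Windows of 300 bases, from 250 before the start to 50 after it, were found for 37 of the 46 members, which had 48 windows. IRF7, USP18, IFITM2, IFIT2, OAS2, OASL, MX2, TRIM22 and DHX58 had none. The ISRE core, on either strand and with overlapping matches counted, lay in 29 of these 48 windows (60.4%), against 3.57% of the 35116 windows of all genes. GAS, as TTCNNNGAA, lay in 11 windows (22.9%), against 7.66% of all. HERC5 had ISRE cores with their first base at -125, -119 and -74 and IFI6 at -156, -115 and -93, where -1 is the base before the start. IFITM1 had them at -40 and -6, the latter overlapped by a GAS match at -12, while LGALS3BP had 1 at -58 and ISG15 had 2 overlapping ones at -113 and -107. The core was in a window of 4 of the 5 called members that had windows, with SP110 as the exception, of 16 of the 24 tested members that were not called and of 5 of the 6 that were not tested. CpG dinucleotides, the sites that DNA methylation occupies, numbered 21 in the HERC5 window, 3 in IFITM1, 4 in LGALS3BP, 9 in IFI6, 20 in ISG15 and 0 in IFI44L, against a median of 14 over all windows. The called members thus covered CpG counts from 3 to 21, and the others that were tested covered 1 to 41. Methylation itself was not measured on these arrays.

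On the 8 arrays 17838 to 19767 of 48801 probes (36.6% to 40.5%) were detected, the most on the SRCAP siRNA array with 5-Aza-CdR of slide 2, and replicates correlated at r = 0.983 to 0.993. The SRCAP probe lay between 6.83 and 7.19 in the 4 samples with NC siRNA and between 6.46 and 6.73 in the 4 with SRCAP siRNA (difference -0.47, two-sided exact permutation p = 0.0286, the smallest that 70 divisions allow), but was not called among all probes (limma adjusted p = 0.172). Those divisions took no account of drug or slide. Within the treatments the probe was not called either (limma adjusted p = 0.683 under PBS and 0.458 under 5-Aza-CdR). The other SRCAP probe was detected on no array. The keratins KRT8 and KRT18 and the adhesion molecule EPCAM, epithelial markers, and CDX2, a transcription factor of intestinal epithelium, were detected on all arrays. In contrast, KRT19, CDH1, CDX1, VIL1 and CDH17 were detected on none. KRT20 and MUC2, the remaining colon epithelium markers of the 6 listed, passed detection on too few arrays to be tested. Of 8 leukocyte markers with a probe, PTPRC, CD3E and ITGAM were detected on no array, CD68, which many cell types express, on all, and CD14, LYZ, NCAM1 and CLEC4C on some. Of the 5 probes of the 4 fibroblast markers, 4 were detected on no array, and none passed detection on enough arrays to be tested. Values below are normalized log2 signals, and differences are log2 changes ± SE from the limma fit over all 8 arrays. Calls were made below 0.05 for limma p-values that were Benjamini-Hochberg adjusted over all 20328 probes tested.

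Much of the pathway was measurable in RKO cells without any drug. Of the 46 genes, 34 had a probe above background on at least 2 arrays and were tested, and 29 of these were detected on all 8 arrays. They included ISG15, UBE2L6, the IFITM genes, BST2, EIF2AK2, MX1, IFI27, IFI16 and IRF1. In contrast, 9 genes had no probe above background on any array, with or without 5-Aza-CdR. These were the RNA-responsive synthetases OAS2 and OASL, the GTPase MX2, the radical enzyme RSAD2 (viperin), XAF1, IFI44, IFI44L, the sensor DHX58 and the chemokine CXCL10. GBP1, a GTPase of the gamma response, passed the detection limit on 1 array only (5.79, SRCAP siRNA with 5-Aza-CdR, slide 2) and was not tested. The signals of the 9 genes lay near the lower end of the scale, and for them only a bound on expression can be given. Since IRF7 was detected on the 4 arrays with 5-Aza-CdR and on no other, it entered the test only through the groups in which it was high. The same held for TRIM22, detected on those 4 arrays and on 1 with PBS.

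**Figure D1:**
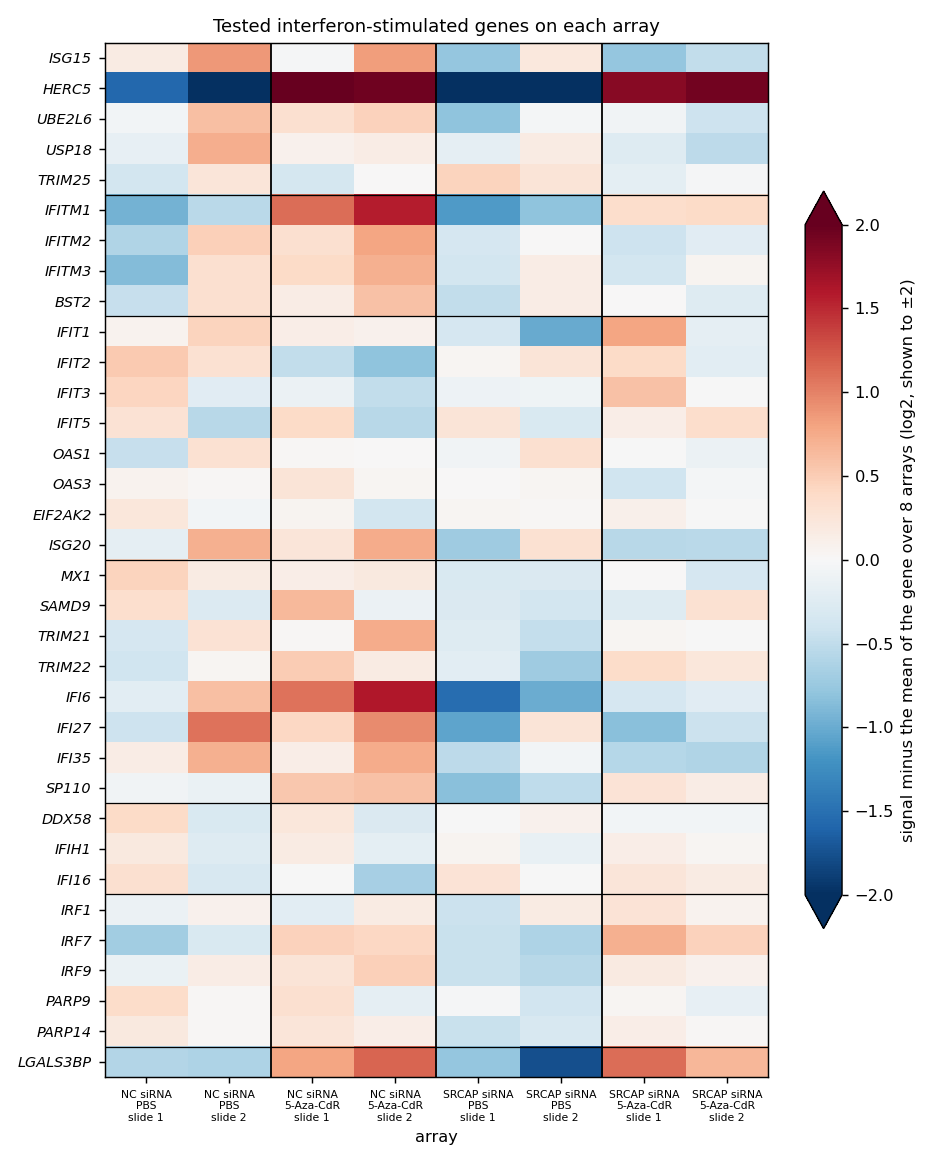
Normalized log2 signal of the 34 tested members (rows, by role) on the 8 arrays (columns), as the difference from the mean of the gene. HERC5 and LGALS3BP are low on the PBS arrays and high on the 5-Aza-CdR arrays of both siRNAs, whereas ISG15 and IFI27 are higher on slide 2 than on slide 1 in all 4 groups.

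The first comparison asked which of these genes responded to 5-Aza-CdR. In NC siRNA cells HERC5, IFITM1 and LGALS3BP rose, 3 of the 34 tested members, where 3.11% of the 11670 genes tested were called higher, and no member fell (0.0343% of all genes). At an unadjusted p under 0.05 limma had 6 members higher and 1 lower there (5.76% and 2.6% of all genes), and 10 higher and 0 lower in SRCAP siRNA cells (6.01% and 2.54%). In SRCAP siRNA cells the same 3 genes and IRF7 rose (4 of 34, against 2.27% of all genes) and 0 fell (0.0257% of all genes). With both siRNAs averaged, IFI6 and SP110 were also called, so that 6 of 34 members were higher (4.01% of all genes) and 0 were lower (33 of all genes, 0.283%). The median change of the 34 members was small, 0.09 in NC siRNA cells and 0.13 in SRCAP siRNA cells, beside -0.04 and -0.01 over all genes. By slide it was 0.28 on slide 1 and 0.03 on slide 2 in NC siRNA cells, and 0.25 and 0.02 in SRCAP siRNA cells. Among the NC siRNA arrays with PBS the members read higher on slide 2 than on slide 1 by a median of 0.33, beside -0.01 for all genes. With arrays scaled to a common median the members' median change became -0.06 in NC siRNA cells and 0.27 in SRCAP siRNA cells. Over all genes it was then -0.16 and 0.11, so the members' sign in NC siRNA cells turned while they stayed above all genes. Between the 5-Aza-CdR and PBS arrays of both siRNAs together, 6 members had no overlap in the higher direction, against 5.61% of all genes, and they were HERC5, IFITM1, LGALS3BP, IRF7, SP110 and TRIM22, with IRF7 and TRIM22 tested only through the drug arrays. In the lower direction there were 0, against 2.56%. Within NC siRNA cells 9 members lay apart in the higher direction (13.8% of all genes) and 1 in the lower (16.6%), and within SRCAP siRNA cells 13 (21.2%) and 5 (19.3%). With slide as a block the calls were 5 higher and 1 lower in NC siRNA cells (3.82% and 0.214% of all genes), 6 higher and 0 lower in SRCAP siRNA cells (2.99% and 0.3%), and 7 higher, IRF7 and TRIM22 among them, and 0 lower in the average (5.19% and 1.1%).

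**Figure D2:**
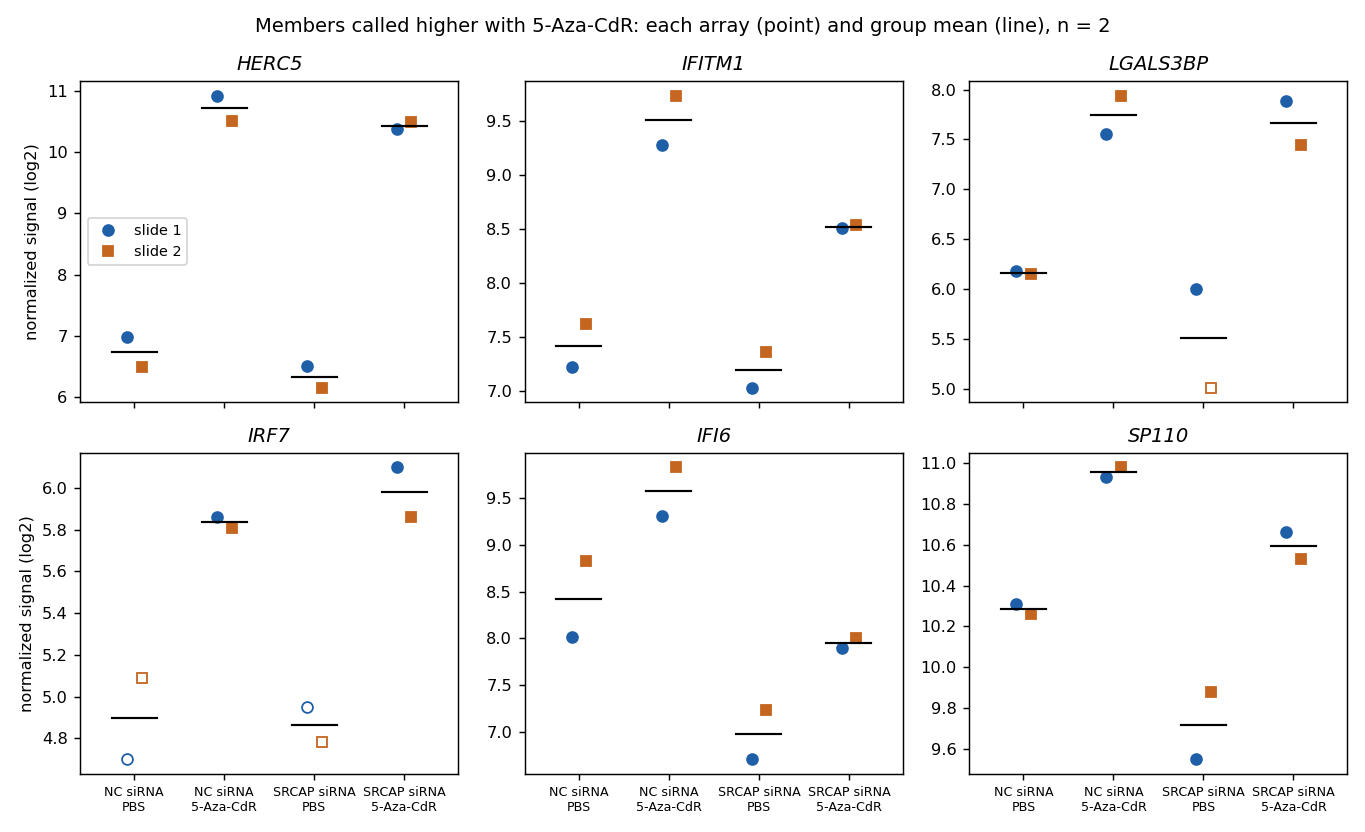
Normalized log2 signal on each array (circles slide 1, squares slide 2, open where not detected) and group mean (line, n = 2) of the 6 members called with 5-Aza-CdR. All PBS arrays of HERC5 lie at or below 6.99 and all 5-Aza-CdR arrays at or above 10.37, and the IFI6 signals of SRCAP siRNA cells lie below those of NC siRNA cells within each treatment.

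In the ISG15 system, a ubiquitin-like tag is carried by UBE2L6, attached by HERC5 with help from TRIM25 for some targets, and removed by USP18. Only the ligase HERC5 was called. Its probe (ILMN_1729749) read 6.99 and 6.50 on the NC siRNA arrays with PBS, 10.92 and 10.51 with 5-Aza-CdR, and in SRCAP siRNA cells 6.52 and 6.16 with PBS and 10.37 and 10.49 with the drug. All 4 drug arrays were far above all 4 PBS arrays. The change was 3.97 ± 0.26 in NC siRNA cells (15.6-fold, adjusted p = 1.05e-05) and 4.09 ± 0.26 in SRCAP siRNA cells (17-fold, adjusted p = 1.26e-05). These calls held under every alternative run, from 2.50 to 4.27, with the lowest values in the table of the authors, where low signals are compressed. HERC6, its neighbour on chromosome 4, could not be followed.

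ISG15 itself, the tag, had no such change. It read 10.72 and 11.41 with PBS and 10.53 and 11.38 with 5-Aza-CdR in NC siRNA cells, and 9.77 and 10.76, then 9.77 and 10.05, in SRCAP siRNA cells. In NC siRNA cells the slides differed by more than the treatments did. In SRCAP siRNA cells the change with the drug was 0 on slide 1 and -0.71 on slide 2. The ISG15 change was -0.11 ± 0.39 and -0.35 ± 0.39 (adjusted p = 0.995 and 0.953). The conjugating enzyme UBE2L6 gave 0.12 ± 0.31 and 0.18 ± 0.31 by its brighter probe, the protease USP18 gave -0.15 ± 0.30 and -0.38 ± 0.30, and TRIM25 gave -0.11 ± 0.26 and -0.46 ± 0.26, none of them called. USP18 read 6.06 and 6.95, then 6.32 and 6.38, in NC siRNA cells, and 6.05 and 6.4, then 5.97 and 5.71, in SRCAP siRNA cells (PBS first, then 5-Aza-CdR, here and below). TRIM25 read 9.75 and 10.36, then 9.76 and 10.12, in NC siRNA cells, and 10.56 and 10.37, then 9.93 and 10.10, in SRCAP siRNA cells. Drug and PBS arrays of both genes overlapped in NC siRNA cells. In SRCAP siRNA cells both genes read lower on the drug arrays without overlap, as 19.3% of all genes did, with no call.

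Among the membrane proteins that hinder virus entry or release, IFITM1 was the member called. The IFITM1 probe (ILMN_1801246) read 7.22 and 7.62 with PBS and 9.28 and 9.74 with 5-Aza-CdR in NC siRNA cells, and 7.03 and 7.36, then 8.51 and 8.54, in SRCAP siRNA cells. Drug and PBS arrays did not overlap, and the drug arrays of SRCAP siRNA cells lay below those of NC siRNA cells. IFITM1 rose by 2.09 ± 0.25 in NC siRNA cells (4.26-fold, adjusted p = 0.000788) and by 1.33 ± 0.25 in SRCAP siRNA cells (2.52-fold, adjusted p = 0.0238). The latter call was lost when either SRCAP siRNA array with PBS (adjusted p = 0.246 and 0.0778 without replicates 1 and 2) or with 5-Aza-CdR (0.219 and 0.247) was left out. It was also lost in the table of the authors (0.73, adjusted p = 0.135), with no filter (0.059) and with detection required on all 8 arrays (0.0718). IFITM2 and IFITM3 lie beside IFITM1 on chromosome 11 and are close copies of it, so their probes may share targets. IFITM3 read 11.32 and 12.50 with PBS and 12.56 and 12.90 with 5-Aza-CdR in NC siRNA cells, and 11.81 and 12.34, then 11.81 and 12.24, in SRCAP siRNA cells. Its change of 0.82 ± 0.37 in NC siRNA cells had an adjusted p of 0.628 and was called only when replicate 2 of NC siRNA with PBS was left out (1.41, adjusted p = 0.0485). IFITM2 gave 0.61 ± 0.34 and -0.15 ± 0.34. It read 12.92 and 13.99, then 13.83 and 14.30, in NC siRNA cells, and 13.18 and 13.52, then 13.11 and 13.29, in SRCAP siRNA cells. BST2 (tetherin), which ties budding virus to the cell surface, gave 0.44 ± 0.32 and 0.05 ± 0.32. Its readings were 11.62 and 12.39, then 12.23 and 12.66, in NC siRNA cells, and 11.59 and 12.22, then 12.08 and 11.82, in SRCAP siRNA cells, with drug and PBS arrays overlapping under both siRNAs.

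The proteins that bind or degrade RNA held no called member of 8 tested. IFIT1 and IFIT2, which bind foreign RNA, showed unlike values. IFIT2 read 7.06 and 6.84 with PBS and 6.04 and 5.73 with 5-Aza-CdR in NC siRNA cells, and 6.58 and 6.80, then 6.91 and 6.32, in SRCAP siRNA cells. In NC siRNA cells both drug arrays thus lay below both PBS arrays, and the change of -1.07 ± 0.26 was called only with slide as a block (adjusted p = 0.074 without the block and 0.0178 with it). IFIT1 read 6.35 and 6.73, then 6.41 and 6.36, in NC siRNA cells, and 5.94 and 5.27, then 7.06 and 6.10, in SRCAP siRNA cells, where 5.27 was not above background. Its change was -0.16 ± 0.34 and 0.97 ± 0.34 (adjusted p = 0.994 and 0.404). Another IFIT1 probe was detected on no array. IFIT3 gave -0.40 ± 0.30 and 0.38 ± 0.30 by its brighter probe and -0.50 ± 0.22 and 0.33 ± 0.22 by the other, with no call. EIF2AK2 (PKR), the kinase that stops translation on double-stranded RNA, read between 11.35 and 11.95 on all arrays and gave -0.25 ± 0.23 and 0.01 ± 0.23. By array EIF2AK2 stood at 11.95 and 11.67, then 11.78 and 11.35, in NC siRNA cells, and 11.76 and 11.75, then 11.82 and 11.72, in SRCAP siRNA cells. The remaining IFIT5, OAS1, OAS3 and ISG20 lay between -0.34 and 0.27 in these comparisons.

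IFI6 and SP110 were called among the other effectors, of which 8 of 14 were tested, and only in the average over both siRNAs. IFI6, a protein of internal membranes, read 8.02 and 8.83 with PBS and 9.31 and 9.83 with 5-Aza-CdR in NC siRNA cells (ILMN_1687384), and 6.71 and 7.24, then 7.90 and 8.0, in SRCAP siRNA cells. Within each siRNA the drug arrays were higher, while the drug arrays of SRCAP siRNA cells were no higher than the PBS arrays of NC siRNA cells. The averaged IFI6 change was 1.06 ± 0.23 (adjusted p = 0.027), with 1.14 ± 0.32 and 0.98 ± 0.32 in the separate siRNAs (adjusted p = 0.151 and 0.324, and 0.00826 and 0.0322 with the slide block). This call was lost without replicate 1 of NC siRNA with PBS (adjusted p = 0.0511), replicate 2 of NC siRNA with 5-Aza-CdR (0.0689), replicate 1 of SRCAP siRNA with PBS (0.131) or either SRCAP siRNA array with 5-Aza-CdR (0.124 and 0.151). It was also lost in the table of the authors (0.64, adjusted p = 0.124), with no filter (0.1) and with detection required on all 8 arrays (0.0788). Another IFI6 probe (ILMN_2347798) changed by 0.74 ± 0.20 on average, without a call (adjusted p = 0.0952, but 0.0256 with the block). It was above background on 6 of 8 arrays and read 5.70 and 6.49, then 6.94 and 7.15, in NC siRNA cells, and 5.17 and 5.44, then 5.98 and 5.70, in SRCAP siRNA cells.

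SP110, a nuclear body protein, read 10.31 and 10.26 with PBS and 10.93 and 10.98 with 5-Aza-CdR in NC siRNA cells (ILMN_1731418), and 9.55 and 9.88, then 10.66 and 10.53, in SRCAP siRNA cells. The drug and PBS arrays did not overlap. Its averaged change was 0.77 ± 0.15 (1.71-fold, adjusted p = 0.0172), and a further probe was called as well (0.73 ± 0.16, adjusted p = 0.0327), whereas another was not (0.38 ± 0.16, adjusted p = 0.372) and the last was detected on no array. The further probe (ILMN_2415144) read 9.86 and 9.91, then 10.23 and 10.71, in NC siRNA cells, and 9.36 and 9.38, then 10.29 and 10.19, in SRCAP siRNA cells. The probe that was not called (ILMN_1672661) read 6.97 and 6.87, then 6.97 and 7.10, in NC siRNA cells, and 6.57 and 6.14, then 6.98 and 7.03, in SRCAP siRNA cells. Its drug arrays lay close to the PBS arrays of NC siRNA cells. The SP110 call was lost without replicate 2 of NC siRNA with 5-Aza-CdR (adjusted p = 0.0544), replicate 1 of SRCAP siRNA with PBS (0.0824) or either SRCAP siRNA array with 5-Aza-CdR (0.112 and 0.0791).

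TRIM22, which was detected on all drug arrays and on 1 of 4 PBS arrays, read 5.44 and 5.87, then 6.35 and 6.01, in NC siRNA cells, and 5.63 and 5.13, then 6.21 and 6.07, in SRCAP siRNA cells. Every drug array was above every PBS array, and the averaged change of 0.65 ± 0.18 was called only with the slide block (adjusted p = 0.12 without it and 0.0478 with it). TRIM21, an antibody receptor of the cytosol, averaged 0.39 ± 0.21 and SAMD9, which restricts poxviruses, 0.29 ± 0.23, neither called. TRIM21 read 8.72 and 9.34, then 9.07 and 9.79, in NC siRNA cells, and 8.79 and 8.58, then 9.09 and 9.04, in SRCAP siRNA cells. SAMD9 read 10.30 and 9.69, then 10.60 and 9.84, in NC siRNA cells, and 9.67 and 9.59, then 9.70 and 10.26, in SRCAP siRNA cells, and slides differed by more than treatments in NC siRNA cells for both genes. The dynamin-like GTPase MX1 read between 11.64 and 12.41 on all arrays and averaged 0.00 ± 0.16. MX1 stood at 12.41 and 12.13, then 12.11 and 12.16, in NC siRNA cells, and 11.67 and 11.68, then 11.98 and 11.64, in SRCAP siRNA cells. The remaining IFI27 and IFI35 averaged 0.05 ± 0.36 and -0.14 ± 0.21. IFI35 read 9.47 and 10.04, then 9.46 and 10.07, in NC siRNA cells, and 8.81 and 9.28, then 8.76 and 8.73, in SRCAP siRNA cells, close together with and without the drug on each NC siRNA slide.

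None of the 3 nucleic acid sensors tested was called. The RNA helicase DDX58 (RIG-I) averaged -0.08 ± 0.20 and its relative IFIH1 (MDA5) 0.07 ± 0.17. DDX58 read 7.37 and 6.69, then 7.22 and 6.70, in NC siRNA cells, and 6.98 and 7.07, then 6.94 and 6.93, in SRCAP siRNA cells. IFIH1 read 8.40 and 7.95, then 8.37 and 8.01, in NC siRNA cells, and 8.26 and 8.06, then 8.33 and 8.25, in SRCAP siRNA cells. Slide 1 was above slide 2 in all 4 groups for IFIH1. The DNA sensor IFI16 read between 12.96 and 13.95 on all arrays and averaged -0.14 ± 0.21. By array IFI16 stood at 13.95 and 13.30, then 13.62 and 12.96, in NC siRNA cells, and 13.90 and 13.61, then 13.86 and 13.78, in SRCAP siRNA cells. For DDX58 the 95% interval of the averaged change ran from -0.52 to 0.36.

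Of the transcription factors and cofactors, 5 were tested and IRF7 was called. IRF7, which drives interferon genes once it is phosphorylated, read 4.70 and 5.09 with PBS and 5.86 and 5.81 with 5-Aza-CdR in NC siRNA cells (ILMN_2349061), and 4.95 and 4.78, then 6.10 and 5.86, in SRCAP siRNA cells. It was above background on the 4 drug arrays only, at low signal. A further IRF7 probe (ILMN_1674646) was detected on no array, so the result rests on this probe alone. IRF7 was at least 1.22-fold higher with 5-Aza-CdR in SRCAP siRNA cells (1.11 ± 0.23 in the fit, adjusted p = 0.0374). In NC siRNA cells it was at least 1.14-fold higher (0.94 ± 0.23, adjusted p = 0.0719, and 0.0313 with the slide block). Such a bound sets the drug arrays against the dimmest probes that passed detection. The call in SRCAP siRNA cells was lost when any array of that siRNA was left out, with adjusted p = 0.157 and 0.28 without the PBS arrays and 0.441 and 0.182 without the drug arrays. It was also lost with an offset of 50 (0.62, adjusted p = 0.211) and in the table of the authors (0.25, adjusted p = 0.426). IRF9, the DNA-binding part of the interferon complex, averaged 0.50 ± 0.15 (adjusted p = 0.155) and read higher with the drug on both slides of both siRNAs. PARP14 averaged 0.27 ± 0.15, IRF1 0.14 ± 0.18 and PARP9 0.00 ± 0.18. IRF9 stood at 8.98 and 9.26, then 9.37 and 9.60, in NC siRNA cells, and 8.67 and 8.57, then 9.30 and 9.20, in SRCAP siRNA cells. PARP14, an ADP-ribosyltransferase, read 9.52 and 9.35, then 9.56 and 9.45, in NC siRNA cells, and 8.88 and 9.0, then 9.45 and 9.35, in SRCAP siRNA cells. IRF1, a factor of the gamma response, read 9.58 and 9.78, then 9.48 and 9.86, in NC siRNA cells, and 9.27 and 9.86, then 9.97 and 9.77, in SRCAP siRNA cells. For PARP14 and IRF1 the drug arrays overlapped the PBS arrays in NC siRNA cells. In SRCAP siRNA cells those of IRF1 overlapped too. Those of PARP14 lay apart and higher there, as for 21.2% of all genes, with no call.

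LGALS3BP, a secreted glycoprotein that binds galectins, rose under both siRNAs. The LGALS3BP probe (ILMN_1659688) read 6.18 and 6.15 with PBS and 7.56 and 7.94 with 5-Aza-CdR in NC siRNA cells, and 6.0 and 5.01, then 7.89 and 7.44, in SRCAP siRNA cells. The reading of 5.01 was not above background, and lay below the other 3 PBS arrays. LGALS3BP rose by 1.59 ± 0.33 in NC siRNA cells (3.0-fold, adjusted p = 0.029) and by 2.16 ± 0.33 in SRCAP siRNA cells (4.47-fold, adjusted p = 0.00537). Without the dim array the latter was 1.66 (adjusted p = 0.0411), and the call was lost without replicate 1 of SRCAP siRNA with 5-Aza-CdR (1.93, adjusted p = 0.11). In NC siRNA cells it was lost without either NC siRNA array with PBS (adjusted p = 0.0643 and 0.0672), replicate 2 of NC siRNA with 5-Aza-CdR (0.155) or either SRCAP siRNA array with 5-Aza-CdR (0.0637 for each). With no filter the call in NC siRNA cells was lost as well (1.59, limma adjusted p = 0.125). The table of the authors gave 0.64 in NC siRNA cells and 0.76 in SRCAP siRNA cells, not called.

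**Figure D3:**
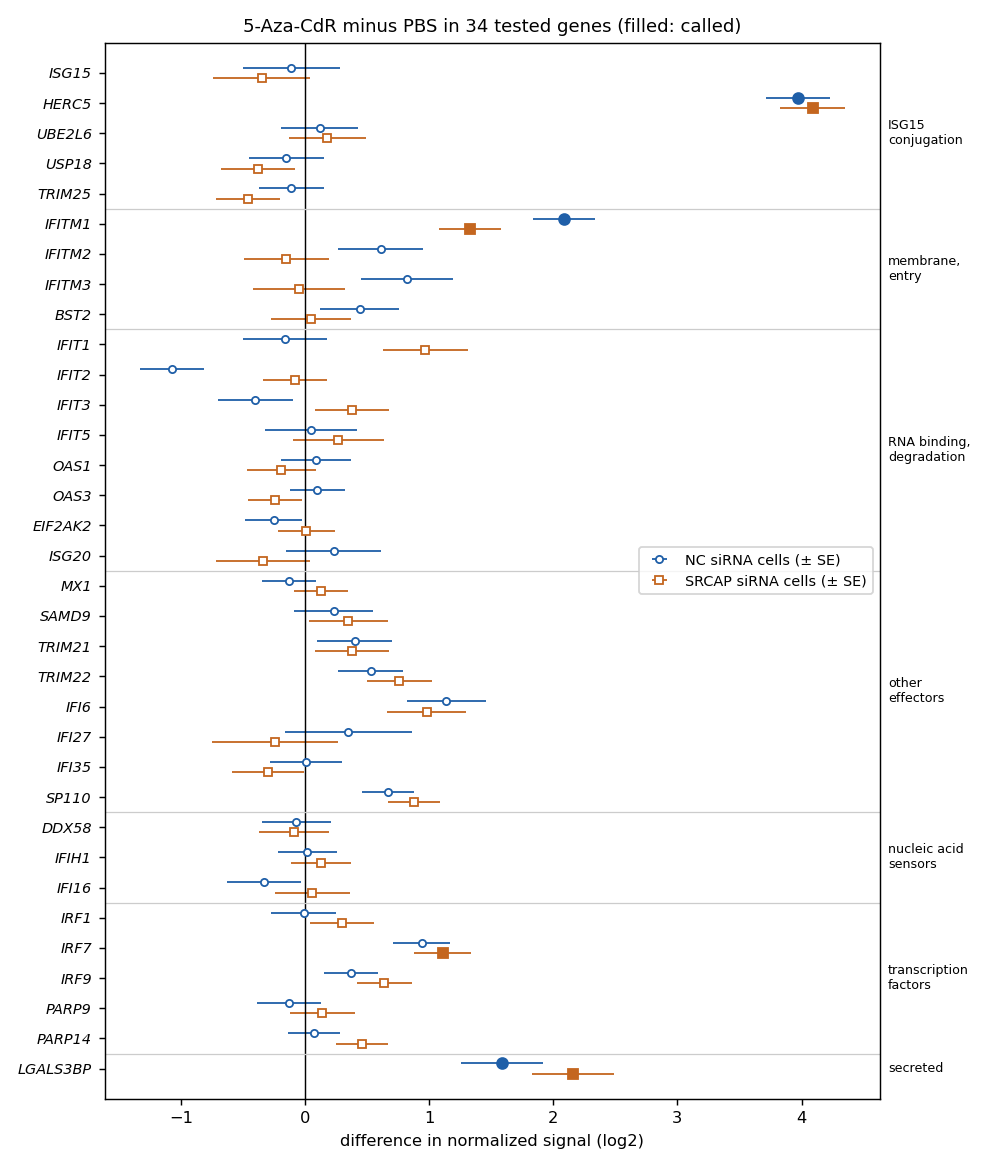
Difference between 5-Aza-CdR and PBS (log2, ± SE) for the 34 tested members by role, in NC siRNA cells (circles) and SRCAP siRNA cells (squares), filled where called. HERC5 stands at 3.97 and 4.09, followed by LGALS3BP and IFITM1, and most other members lie within 1 of 0 under both siRNAs.

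The next comparison asked how SRCAP siRNA affected these genes with and without the drug. No member was called under PBS, where 2 of all 11670 genes were lower (0.0171%) and 0 were higher, and none under 5-Aza-CdR, where 40 genes were lower (0.343%). At an unadjusted p under 0.05 limma had 7 members lower and 0 higher under PBS (5.07% and 2.08% of all genes). Under 5-Aza-CdR it had 7 lower and 1 higher (8.81% and 4.78% of all genes). The signs leaned to lower values, with 29 of 34 members below 0 under PBS (52.7% of all genes) and 24 of 34 under 5-Aza-CdR (49% of all genes). The members' median was -0.28 and -0.24, against -0.02 and 0.01 for all genes. When arrays were scaled to a common median in place of quantiles, the median of all genes under 5-Aza-CdR moved to 0.23 and that of the members to 0.03, so their sign turned while they stayed 0.20 below all genes, and 15 of 34 members had values below 0, with 24 below the median of all genes. The arrays of the siRNAs did not overlap for 11 members that were lower with SRCAP siRNA under PBS (19.2% of all genes) and 1 that was higher (13.1%), and for 18 lower (27%) and 3 higher (24%) under 5-Aza-CdR. With slide as a block, 1 member was called lower and 0 higher under PBS (0.36% and 0.0686% of all genes), and 6 lower and 0 higher under 5-Aza-CdR (5.11% and 1.17%).

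IFI6 had the lowest values in both. Its brighter probe, with the readings given above, was lower by SRCAP siRNA at -1.45 ± 0.32 under PBS (adjusted p = 0.29, and 0.0233 with the slide block) and -1.62 ± 0.32 under 5-Aza-CdR (adjusted p = 0.0741, and 0.00247 with the block). All 4 SRCAP siRNA readings of IFI6 lay below all 4 NC siRNA readings. Averaged over both treatments, a contrast added after the data were examined, IFI6 fell by 1.54 ± 0.23 on the log2 scale (2.90-fold lower, adjusted p = 0.0201), as 1 of 34 members (1.05% of all genes were lower there), with 0 members called higher (0.197%). In this average 3 members, MX1, IFI6 and IFI35, had lower readings on all SRCAP siRNA arrays (5.02% of all genes) and 0 had higher ones (3.69%). The call was lost when any SRCAP siRNA array was left out, with adjusted p = 0.102 and 0.0587 without the PBS arrays and 0.164 and 0.155 without the drug arrays. The table of the authors (-0.94, adjusted p = 0.0941) and a fit with no filter (0.0729) did not give it either. The other IFI6 probe gave -0.99 ± 0.20 (adjusted p = 0.0521, and 0.00565 with the block).

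The other 5 members called lower under 5-Aza-CdR with the block were ISG15, IFITM1, ISG20, IFI27 and IFI35. ISG15 gave -1.04 ± 0.39 (adjusted p = 0.32, and 0.0207 with the block). The exonuclease ISG20 read 12.10 and 12.59 on the NC siRNA drug arrays and 11.30 and 11.31 on those of SRCAP siRNA, a difference of -1.04 ± 0.38 (0.308 and 0.0346). IFI35 read 9.46 and 10.07 against 8.76 and 8.73, a difference of -1.02 ± 0.29 (0.212 and 0.0216). In these genes slide 2 was brighter than slide 1 among NC siRNA arrays, which the block takes out of the spread. IFI27, a small membrane protein, read 11.51 and 12.05 against 10.26 and 10.67, a difference of -1.32 ± 0.51 (0.329 and 0.0178), and 10.69 and 12.19 against 10.05 and 11.36 under PBS, where its replicates differed by more than the groups. IFITM1 differed by -0.98 ± 0.25 under 5-Aza-CdR (0.167 and 0.0191) and by -0.22 ± 0.25 under PBS (0.868 and 0.689). Over both treatments the block called 7 members lower, those 6 and UBE2L6 (7.51% of all genes), and 0 higher (3.45%).

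Some members read higher with SRCAP siRNA under 5-Aza-CdR or PBS, and others read lower. Under 5-Aza-CdR, IFIT2 (0.73 ± 0.26), IFIT3 (0.59 ± 0.30) and IFI16 (0.53 ± 0.30) read higher on both SRCAP siRNA arrays than on both NC siRNA arrays, with no call (adjusted p = 0.298, 0.413 and 0.46). TRIM25 did so under PBS (0.42 ± 0.26, adjusted p = 0.79). MX1 read 12.41 and 12.13 against 11.67 and 11.68 under PBS (-0.59 ± 0.22, adjusted p = 0.64), and IFIT1 gave -0.94 ± 0.34 there (0.616). All 8 tested genes among the other effectors had values below 0 in both comparisons, from -1.45 to -0.27 under PBS and from -1.62 to -0.04 under 5-Aza-CdR, where SAMD9 (0.04) and TRIM22 (0.06) turned with arrays scaled to a common median. The summed signal of the epithelial markers was also lower with SRCAP siRNA, 3850 to 4400 against 5360 to 6900 under PBS and 6000 to 6180 against 6940 to 10400 under 5-Aza-CdR (KRT18 and EPCAM by -0.52 and -0.80 under PBS, not called). Its part in these results was not tested.

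**Figure D4:**
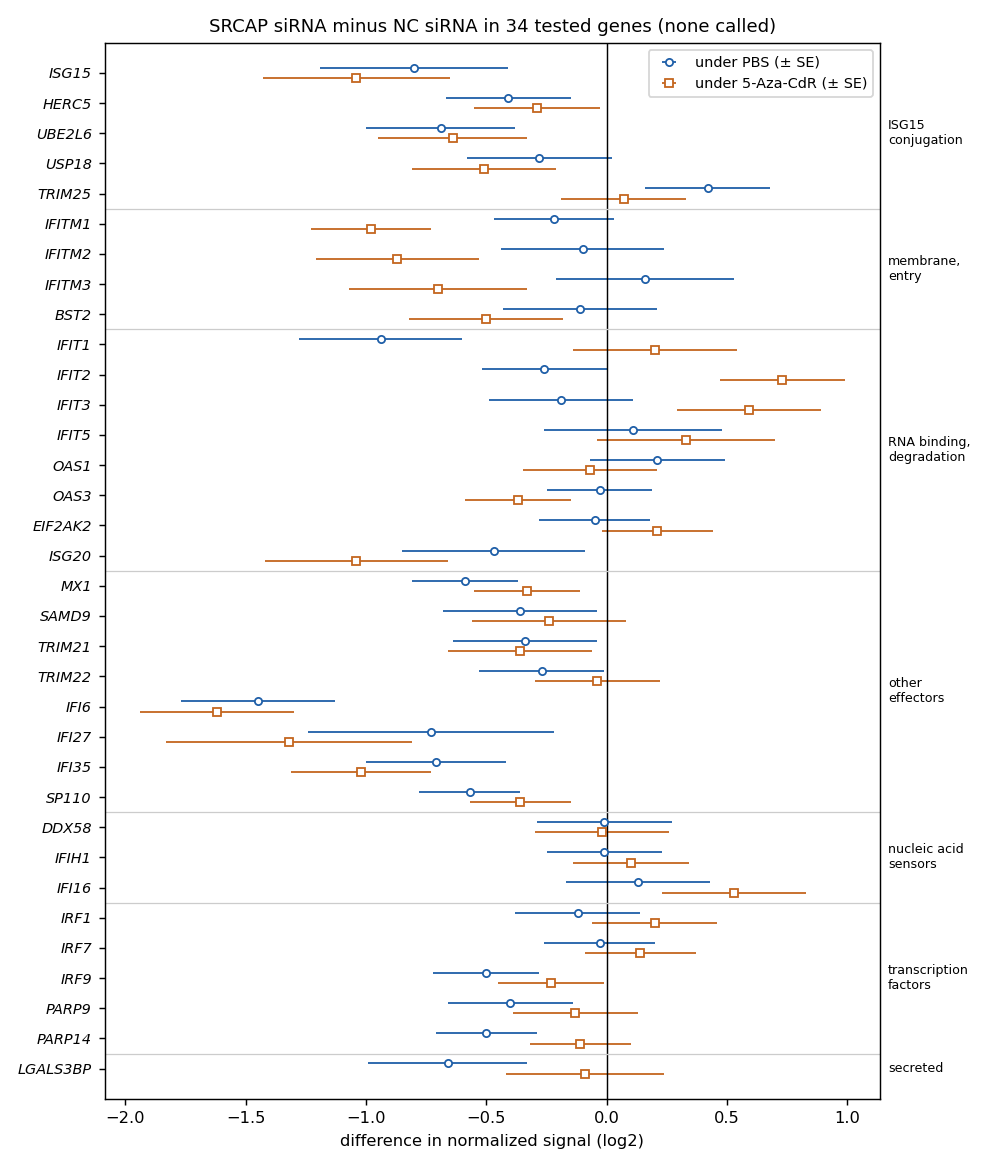
Difference between SRCAP and NC siRNA (log2, ± SE) for the 34 tested members by role, under PBS (circles) and under 5-Aza-CdR (squares), none called. Most points lie to the left of 0, IFI6 farthest at -1.45 and -1.62, with IFIT2, IFIT3 and IFI16 to the right under 5-Aza-CdR.

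Whether the response to 5-Aza-CdR differed between the siRNAs was tested as an interaction, in which values above 0 mean a higher change with SRCAP siRNA than with NC siRNA. No member was called, and neither was any gene (0%), with or without the block. Before adjustment limma had 2 members higher and 0 lower below 0.05 (0.677% and 1.53% of all genes), IFIT2 (0.99 ± 0.37) and IFIT1 (1.13 ± 0.48), both with an adjusted p of 0.999. HERC5 differed by 0.12 ± 0.37, with a 95% interval of -0.70 to 0.94, so a difference of its response within that range cannot be told from 0. IFITM1 differed by -0.76 ± 0.36 (interval -1.56 to 0.04), and LGALS3BP by 0.57 ± 0.46 (interval -0.46 to 1.60). The 4 membrane proteins all had values below 0, from -0.87 for IFITM3 to -0.39 for BST2. The members' median was 0.12, beside 0.03 for all genes, and became 0.35 beside 0.27 when arrays were scaled to a common median.

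Genes upstream of the pathway were read from lists of other genes. Of interferon genes, only IFNA1, IFNA2, IFNB1, IFNE, IFNK, IFNG, IFNL1, IFNL2 and IFNL3 were listed, and others were not read. No probe of those listed was above background on any array. Only receptors were tested, 6 of the 15 genes on the list of interferons and receptors. None was called with 5-Aza-CdR (changes from -0.21 to 0.52). IFNLR1, the receptor chain for interferon lambda, read 9.31, 9.26, 9.10 and 9.06 on the NC siRNA arrays and 8.08, 8.25, 8.0 and 7.96 on those with SRCAP siRNA. It was lower on every SRCAP siRNA array. IFNLR1 fell by 1.11 on the log2 scale averaged over both treatments (adjusted p = 0.0166), as did a further probe (-0.90, adjusted p = 0.0362). That contrast was added after the data were examined, and 1.05% of all genes were called lower in it. Without the slide block IFNLR1 was called neither under PBS (adjusted p = 0.205) nor under 5-Aza-CdR (0.0651). Of 13 tested genes for signalling kinases and adaptors 0 were called with 5-Aza-CdR without the slide block. TLR3, an endosomal receptor for double-stranded RNA, read 7.61 and 6.70, then 6.55 and 5.97, in NC siRNA cells, and 7.6 and 6.94, then 6.47 and 6.06, in SRCAP siRNA cells. All drug arrays of TLR3 lay below all PBS arrays, and with the block it was called lower under both siRNAs (-0.89 and -1.0, adjusted p = 0.0318 and 0.0193, against 0.513 and 0.426 without the block). Of the same list IKBKE, a kinase that activates IRF3 and IRF7, fell by 0.74 with SRCAP siRNA averaged over both treatments (adjusted p = 0.0484). Without the block IKBKE was not called under PBS (adjusted p = 0.662) or under 5-Aza-CdR (0.0937). Of 11 tested genes that dampen the pathway and 8 tested NF-kB targets 0 were called in any comparison without the block. With the block RNASEH2A, a subunit of a nuclease for RNA in DNA hybrids, was lower with SRCAP siRNA under 5-Aza-CdR (-1.30, adjusted p = 0.00701) and over both treatments (-0.98, 0.00321), and SAMHD1 was higher over both (0.52, 0.0444). Of the NF-kB targets the chemokine CXCL8 was then higher with 5-Aza-CdR in SRCAP siRNA cells (1.53, adjusted p = 0.0102) and in the average (0.96, 0.0137), and CCL20 in the average (0.81, 0.0398). CD14, a leukocyte marker also used by other cells, had a probe that rose in NC siRNA cells with 5-Aza-CdR (1.61, adjusted p = 0.013), while its other probe was detected on no array. Of the leukocyte markers only CD68, which many cell types express, was detected on all arrays, so their sum is no measure of leukocytes. The summed signal of the leukocyte markers was 27100 to 29600 with PBS and 31200 to 32400 with 5-Aza-CdR in NC siRNA cells, and 25100 to 26000 and 29600 to 30100 in SRCAP siRNA cells. The epithelial sum given above was likewise higher with the drug under both siRNAs. The part of either sum in the drug comparisons was not tested.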

How the data were processed

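Total RNA of 8 RKO cell samples was hybridised to Illumina HumanWG-6 v3 arrays. The deposited intensity values are bead signals per probe on a linear scale, which the authors exported from BeadStudio 3.0.1 (named in the submitters' processing notes) without normalization. Each deposited detection p-value sets its signal against the negative control beads of its array. A further deposited table holds log2 values of the authors after robust spline normalization in lumi, with low signals compressed and column medians of 7.44 to 7.45; it served as an alternative. Neither table names a genome build.

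Of 48801 probes (2 repeated IDs were left out), signals were processed by neqc of limma 3.58.1 in R 4.3.3, which estimates background by normexp with detection p-values, adds an offset (16 here), applies quantile normalization and takes log2. The 20328 probes kept had 2 or more arrays of any group with detection p below 0.01. Names came from the GEO platform annotation, updated by gene ID for 27539 probes through RefSeq. A gene was counted by its kept probe of highest mean. limma's linear model held the 4 group means over all arrays (4 residual and 5.83 prior degrees of freedom) and tested two-sided, Benjamini-Hochberg adjusted over all kept probes per contrast, whereas SAM between pairs of groups is named in the study. The number of arrays limits the precision. The steps were tested on simulated data.

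Where no array of a group detected a probe, a fold is a bound: the mean of the brighter group against, per array of the dim group, the higher of the probe's own value and the lowest detected signal. The replicate number marks the slide in the labels, so samples of equal number share a slide. The deviations of equally numbered arrays correlated at 0.00347 to 0.711 over kept probes, and a fit with slide as a block was run beside each result. The members and the lists were chosen with earlier results of these data known. Values on every array are given by rule for members called in any contrast, up to 3 more per role by the averaged 5-Aza-CdR effect, and the 3 with the smallest p in each siRNA contrast and the interaction; a few others were named after their values were seen. Alternatives were the table of the authors, median scaling, another offset, other detection filters, the slide block, fits on the compared groups alone, another choice of probe and leaving out each array.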

Additional observations from a re-analysis of the deposited data

Results flagged for a closer look

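IFITM2 stood out because its change with 5-Aza-CdR ran in opposite directions under the siRNAs on every slide, 0.91 and 0.31 in NC siRNA cells and -0.07 and -0.24 in SRCAP siRNA cells. It read 12.92 and 13.99 with PBS and 13.83 and 14.30 with the drug in NC siRNA cells, and 13.18 and 13.52, then 13.11 and 13.29, in SRCAP siRNA cells. The interaction was -0.76 and did not pass the test (limma adjusted p = 0.999).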

How the results depend on the processing

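No called result changed sign under any alternative run. Of the values under an alternative of the members named by rule, which leaves out ISG20, IFI27 and UBE2L6, 2424 kept their direction and side of the threshold or moved within the replicate spread, 135 moved further, 24 became calls and 41 lost a call. With 5-Aza-CdR, the members called in NC siRNA cells became 6 with the slide block and were 2 to 4 with an array left out, while their median ran from 0.07 to 0.30. In SRCAP siRNA cells the count was 1 in the table of the authors, 1 with detection required on all 8 arrays, and 1 to 4 with an array left out. In the average it became 3 with detection on all arrays, where IRF7, LGALS3BP and 3 other members were not tested. With SRCAP siRNA under PBS the count became 1 with the block, and the median became -0.13 in the table of the authors, -0.31 with median scaling, -0.20 with an offset of 50, -0.21 with no filter, and -0.43 to -0.16 with an array left out. Under 5-Aza-CdR the count became 6 with the block, 3 with the compared groups alone and 0 to 1 with an array left out, and the median became -0.17, 0.03, -0.23 and -0.13 under those 4 settings, -0.33 with detection on all arrays, and -0.28 to -0.17 with an array left out. The interaction median became 0.04, 0.35, 0.08 and 0.03 under the same 4 settings, 0.06 with detection on all arrays and 0.03 to 0.17 with an array left out. Averaged over treatments, SRCAP siRNA called 0 members in the table of the authors, 0 with no filter, 7 with the block and 0 to 5 with an array left out, and the median became -0.17 with median scaling. The block changed no other count of members by over 1.5 times. The shares of all genes called with the block are given with the results above. For the other settings such shares are not given, so those counts cannot be read as particular to the members. The cause of the moves under any setting was not tested. With 1 array left out the lone array of its group is assumed to vary like the other groups. Signals near background limit what can be said of IRF7, TRIM22, IFIT1 and the 9 undetected members.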
